A study of Mus musculus with 12 samples.

Results

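The 6 genes described here encode the early growth response (Egr) transcription factors *Egr1*, *Egr2*, *Egr3* and *Egr4* and their corepressors *Nab1* and *Nab2*. They were taken by gene symbol from a table of 55304 genes, and all 6 were present and passed the filter on low values. The family was chosen by the levels of *Egr3* and *Egr4*, which were low after glucocorticoid withdrawal, so the levels of those 2 genes in the withdrawal groups, set against control or DEX, are given as a description without a test. The study sorted enhanced green fluorescent protein (eGFP) positive cells from the dissociated anterior pituitary of male *Pomc*-eGFP transgenic mice on a C57Bl6/J background, 8 weeks old when the protocol began. The transgene drives eGFP from the *Pomc* promoter and so labels corticotrophs, the cells that make ACTH. Control mice (group A) drank water for 8 weeks. Mice given dexamethasone (DEX, a synthetic glucocorticoid; group B) drank water for 4 weeks and then DEX at 2.5 microg/ml for 4 weeks. The withdrawal groups received the same 4 weeks of DEX and were then returned to water, for 1 week (group C, after 3 weeks of water) or for 4 weeks (group D). All mice carried the transgene, and tissue from all groups was collected at the end of 1 protocol. Each group had 3 libraries, and each library was a pool of cells from 2 to 3 pituitaries, so n counts pools.

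Egr factors are zinc finger proteins whose genes are switched on within minutes of a stimulus, usually through MAP kinase and cAMP signalling, serum response factor and CREB. They bind GC-rich sites and activate or repress other genes. Nab1 and Nab2 bind Egr1, Egr2 and Egr3 and usually restrain them by recruiting the NuRD chromatin remodelling complex, whereas Egr4 lacks the domain that Nab proteins bind. In the pituitary, Egr1 is best known for activating *Lhb* in gonadotrophs. Because immediate early genes are also induced when tissue is dissociated, their RNA in sorted cells reflects both the animal and the preparation.

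The libraries held 7719894 to 12848078 reads on genes. The deposited values are normalised counts, that is CPM of the effective library size, in which 1 read was worth 0.0787 to 0.127. *Pomc* ranged from 34562 to 74260 in control, from 4241 to 8521 in DEX, from 43612 to 284740 at 1 week and from 48189 to 80216 at 4 weeks after withdrawal. The defining corticotroph gene *Tbx19* was present in all libraries but was low in pool 3 of the 1 week group, at 39.5 against 282 and 385 in the other pools of that group, and *Avpr1b* was 1.56 there against 40.0 and 36.7. The fold changes of the members that involve the 1 week group are therefore also given without that pool, while levels and ratios at 1 week include it. RNA of other hormone cells was abundant in every group, with *Gh* at 67563 to 265851 and *Prl* at 31498 to 119783.

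*Egr3*, a factor known from muscle spindles, neurones and lymphocytes, had nearly identical levels in the control pools, high levels in the DEX pools and low levels in both withdrawal groups. Its normalised counts in control pools 1, 2 and 3 were 42.1, 40.8 and 39.7 (mean 40.8 ± 1.2, SD, n = 3). In DEX they were 67.6, 57.1 and 76.9 (67.2 ± 9.89, SD, n = 3). All 3 DEX pools lay above all 3 control pools, a separation in this direction that 6.61% of the 24736 genes tested showed. One week after withdrawal the values were 17.5, 7.90 and 9.23 (11.5 ± 5.20, SD, n = 3), and 4 weeks after withdrawal they were 18.0, 8.10 and 7.40 (11.2 ± 5.94, SD, n = 3). The highest pool of either withdrawal group was thus below the lowest control pool, with pool 1 the highest in each. These low levels still rested on 62 to 195 reads per library. The control mean was 3.54 times the 1 week mean and 3.66 times the 4 week mean, and the DEX mean was 5.83 and 6.02 times them. For reference, all 3 pools lay below all 3 control pools for 2.61% of genes at 1 week and 6.42% at 4 weeks, and below all 3 DEX pools for 6.87% and 9.67%. *Egr3* is annotated at chr14:70077203-70082614 on the plus strand (GRCm38). The corticotroph genes *Tbx19* and *Avpr1b* also differed by group. *Tbx19* was 218 to 459 in control, 498 to 1490 in DEX, 39.5 to 385 at 1 week and 94.4 to 188 at 4 weeks, so that all DEX pools were above control and all 4 week pools below it, as for *Egr3*. *Avpr1b* was 12.1 to 60.0, 67.9 to 130, 1.56 to 40.0 and 9.30 to 24.5 in the same order. Between DEX and control their log2 fold changes were 1.55 and 1.87 (adjusted p = 0.685 and 0.741 with limma), and neither was called against control in any group. Their part in the *Egr3* levels was not tested. In a sorted pool, fewer cells with a transcript and less transcript per cell cannot be told apart, here and for every gene below.

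*Egr3* was tested only between DEX and control and between the withdrawal times. Its control and withdrawal values also entered the choice of the family, so these tests are not free of that choice. Between DEX and control the log2 fold change was 0.71 (95% CI −0.04 to 1.45, adjusted p = 0.754 with limma and Benjamini-Hochberg adjustment over all genes), so the separated pools did not pass the test. Between 4 weeks and 1 week after withdrawal it was −0.08 (95% CI −0.83 to 0.67, adjusted p = 1 with limma). That interval leaves room for a change of either sign. Its direction also turned in 3 of the 12 fits that left out 1 library, over a range of −0.48 to 0.26. The descriptive log2 fold changes were −1.90 at 1 week and −1.98 at 4 weeks against control, and −2.61 and −2.69 against DEX. Without pool 3 of the 1 week group the values at 1 week were −1.79 against control and −2.49 against DEX, and the difference between the withdrawal times was −0.19.

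*Egr4*, a family member best known from the nervous system and the male germ line, was low after withdrawal too, and unlike *Egr3* its DEX pools overlapped control. Control pools held 176, 283 and 214 normalised counts (225 ± 54.4, SD, n = 3). DEX pools held 173, 149 and 222 (181 ± 37.4, SD, n = 3). One week after withdrawal the values were 91.2, 15.8 and 23.9 (43.6 ± 41.4, SD, n = 3), so that pool 1 alone set most of the mean. The 4 week pools were close together, at 70.5, 83.2 and 82.0 (78.6 ± 7.02, SD, n = 3). Every withdrawal pool was below every control and every DEX pool. Of all genes, 2.61% at 1 week and 6.42% at 4 weeks were separated from control in this way. Against DEX the shares were 6.87% and 9.67%. The control mean was 5.15 times the 1 week mean and 2.86 times the 4 week mean.

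The tests of *Egr4*, like those of *Egr3*, used values that entered the choice of the family. For *Egr4* the log2 fold change between DEX and control was −0.30 (95% CI −1.26 to 0.66, adjusted p = 0.930 with limma). From 1 week to 4 weeks after withdrawal it was 1.26 (95% CI 0.30 to 2.23), with an unadjusted p of 0.0135 in limma that became 0.770 after adjustment over all genes. The pools of these groups overlapped, because pool 1 at 1 week was higher than all 4 week pools. Leaving out 1 library moved this value between 0.75 and 2.01, the former without pool 2 and the latter without pool 1 of the 1 week group, and it was 1.04 without pool 3. The descriptive log2 fold changes were −2.75 at 1 week and −1.49 at 4 weeks against control, and −2.46 and −1.19 against DEX. Without pool 3 of the 1 week group the values at 1 week were −2.53 and −2.23. Over the fits that left out 1 library, the 1 week value against control lay between −3.50 and −2.24.

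**Figure D1:**
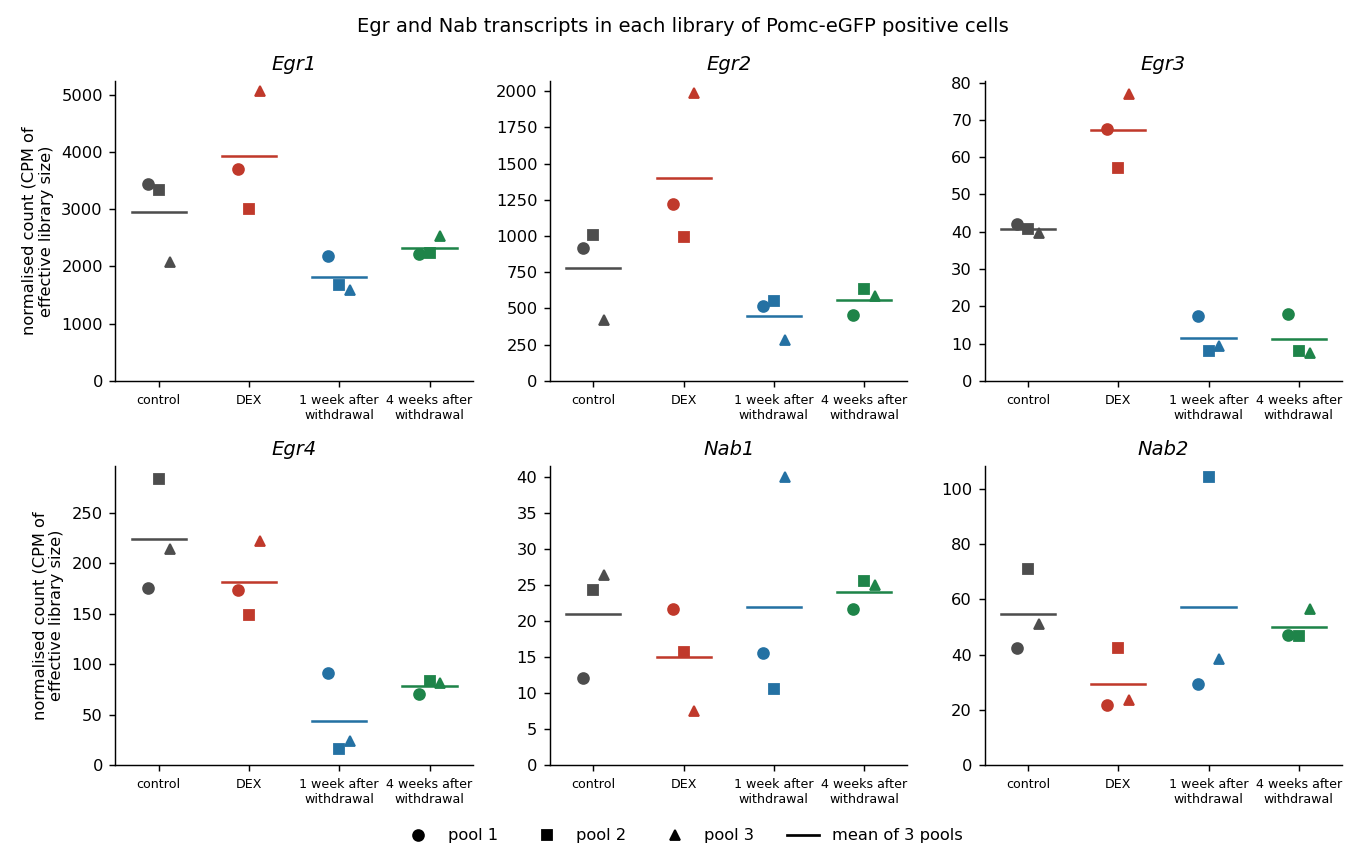
Normalised counts (CPM of the effective library size, linear axes from 0) of the 6 genes in each of the 12 libraries, by group; symbols are pools 1 to 3 and bars are means of 3 pools. All *Egr3* and *Egr4* pools after withdrawal sit below the control pools, *Egr1* and *Egr2* overlap control, and *Nab1* and *Nab2* scatter widely at 1 week, from 10.6 to 40.0 and from 29.5 to 104.

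The 250 bases before the start site are shown for *Egr4* and *Egr2*, because promoters of the family are known to respond to signalling. They were taken from RefSeq (GRCm38.p6), and the table used here had windows for *Egr2*, *Egr4*, *Nab1* and *Nab2*. *Egr2* has several RefSeq start sites, and the one shown starts a GENCODE transcript with no annotated exon in the window. Capitals mark letters of the motifs searched. These were the CRE half-site TGACG on either strand (CGTCA on the other), the binding sequence core of CREB; the CArG box of serum response factor on either strand; TATAAA or TATAAG on the gene's strand; and the Egr sites GCGTGGGCG and GCGGGGGCG on either strand. The Egr site and the CRE half-site do not overlap in any printed sequence.
*Egr4*, chr6:85513590-85513839, minus strand: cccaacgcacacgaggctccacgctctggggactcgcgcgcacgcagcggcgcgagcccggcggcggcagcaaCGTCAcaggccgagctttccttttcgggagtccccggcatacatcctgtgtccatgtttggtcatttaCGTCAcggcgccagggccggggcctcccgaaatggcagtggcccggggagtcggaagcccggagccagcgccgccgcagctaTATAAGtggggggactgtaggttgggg
*Egr2*, chr10:67537619-67537868, plus strand: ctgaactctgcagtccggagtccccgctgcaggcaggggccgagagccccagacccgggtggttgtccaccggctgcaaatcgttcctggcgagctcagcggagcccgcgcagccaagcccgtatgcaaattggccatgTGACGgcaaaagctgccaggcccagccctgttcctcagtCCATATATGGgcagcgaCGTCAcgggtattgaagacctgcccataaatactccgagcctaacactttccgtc
*Nab1*, chr1:52500570-52500599, minus strand: gccccgcggcCGCCCACGCcgggatctgcg

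The *Egr4* window held 2 CRE half-sites, the nearer ending 105 bases before the start, and a TATA box 27 to 22 bases before it. The *Egr2* window held 2 CRE half-sites, 111 to 107 and 55 to 51 bases before the start, with a CArG box between them at 72 to 63 bases. Of all 32851 windows of this length, 17.8% held a CRE half-site, 1.47% a CArG box and 11.2% one of the TATA forms. The 30 bases of *Nab1* are shown because its window, most of which GENCODE counts as exon, held 3 Egr sites, of which the first, 141 to 133 bases before the RefSeq start, is printed. Egr sites were in 3.06% of all windows, and 11 windows held 3 or more. No Egr site was found in the *Egr2*, *Egr4* or *Nab2* windows. The *Nab2* window precedes a RefSeq start at 127666703 that starts no GENCODE transcript. It lies inside the annotated gene, so the bases before the annotated end at 127668568, where this minus strand gene begins, were not searched. The glucocorticoid response element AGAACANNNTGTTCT, which reads the same on both strands, was in none of the windows of these 4 genes and in 3 windows overall. Such matches describe the letters only.

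*Egr2*, which directs myelination and hindbrain patterning and is a common activity marker, was more abundant than *Egr3* and *Egr4* in every library. Control pools held 914, 1004 and 419 normalised counts (779 ± 315, SD, n = 3), and DEX pools held 1223, 992 and 1985 (1400 ± 520, SD, n = 3). After withdrawal the values were 514, 548 and 284 at 1 week (449 ± 143, SD, n = 3) and 452, 636 and 584 at 4 weeks (557 ± 94.9, SD, n = 3). Control pool 3 was lower than some pools of each withdrawal group, so withdrawal and control overlapped. Every withdrawal pool was below every DEX pool, as were 6.87% of all genes at 1 week and 9.67% at 4 weeks. Between DEX and control the log2 fold change was 0.88 (95% CI 0.05 to 1.71, unadjusted p = 0.0390 and adjusted p = 0.702 with limma). Against control it was −0.76 at 1 week (95% CI −1.59 to 0.08) and −0.40 at 4 weeks (95% CI −1.23 to 0.43), with adjusted p of 1 and 0.910 in limma. Control pool 3 weighed on these values. Without it they were 0.48 in DEX, −1.15 at 1 week and −0.80 at 4 weeks, and the 4 week value was nearest to 0 without control pool 2, at −0.17.

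The nearest approach to a call was *Egr2* at 1 week after withdrawal against DEX, with a log2 fold change of −1.64 (95% CI −2.47 to −0.81, adjusted p = 0.0759 with limma). Its adjusted p was 0.00164 with DESeq2 on the recovered reads, and it ranged from 0.0449 to 0.291 over the 12 limma fits that left out 1 library. The lowest came without control pool 3. When pool 3 at 1 week was left out, the log2 fold change was −1.34 (adjusted p = 0.159 with limma), and against control it was −0.46. At 4 weeks against DEX it was −1.28 (95% CI −2.11 to −0.45, adjusted p = 0.169 with limma and 0.0191 with DESeq2). Between 4 weeks and 1 week after withdrawal it was 0.36 (95% CI −0.47 to 1.19, adjusted p = 1 with limma), or 0.06 without that pool. *Egr2* lies at chr10:67535475-67542188 on the plus strand.

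*Egr1* was the most abundant member in every library and is the one most often used as a marker of recent stimulation. Control pools held 3450, 3331 and 2072 normalised counts (2951 ± 763, SD, n = 3), and DEX pools held 3706, 3009 and 5068 (3928 ± 1047, SD, n = 3). The 1 week pools held 2180, 1678 and 1596 (1818 ± 316, SD, n = 3). The 4 week pools held 2218, 2239 and 2531 (2329 ± 175, SD, n = 3), above all 1 week pools, as were 5.19% of all genes. All withdrawal pools were below all DEX pools, as were 6.87% of all genes at 1 week and 9.67% at 4 weeks. Both withdrawal groups overlapped control through control pool 3. The gene spans chromosome 18 from 34859823 to 34864984 on the plus strand.

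For *Egr1* the log2 fold change between DEX and control was 0.42 (95% CI −0.42 to 1.25, adjusted p = 0.891 with limma). Against control it was −0.68 at 1 week (95% CI −1.51 to 0.16) and −0.31 at 4 weeks (95% CI −1.14 to 0.53), with adjusted p of 1 and 0.941 in limma. The DEX value lay between 0.18 (without control pool 3) and 0.59 (without DEX pool 2), and was 0.22 without DEX pool 3. The 4 week value lay between −0.54 (without control pool 3) and −0.18 (without control pool 1). Against DEX it was −1.09 at 1 week (95% CI −1.93 to −0.25), where limma gave an adjusted p of 0.288 and DESeq2 one of 0.00454. Leaving out pool 3 at 1 week gave −0.59 against control and −1.004 against DEX. It was −0.72 at 4 weeks against DEX (95% CI −1.56 to 0.11, adjusted p = 0.606 with limma). Between 4 weeks and 1 week it was 0.37 (95% CI −0.47 to 1.21, adjusted p = 1 with limma), or 0.28 without pool 3 of the 1 week group.

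*Nab2*, the corepressor that Egr factors are known to induce as negative feedback, was low in DEX. Control pools held 42.6, 71.2 and 51.0 normalised counts (54.9 ± 14.7, SD, n = 3) and DEX pools held 21.9, 42.5 and 23.5 (29.3 ± 11.5, SD, n = 3). The highest DEX pool was just below the lowest control pool, and 6.23% of all genes had all DEX pools below all control pools. The 1 week pools held 29.5, 104 and 38.4 (57.4 ± 40.9, SD, n = 3) and overlapped every other group. The 4 week pools held 47.3, 46.6 and 56.6 (50.2 ± 5.56, SD, n = 3), above all DEX pools, as were 9.8% of all genes. The log2 fold change between DEX and control was −0.94 (95% CI −1.78 to −0.10, unadjusted p = 0.0312 and adjusted p = 0.685 with limma). It was −0.13 at 1 week (95% CI −0.97 to 0.71) and −0.10 at 4 weeks (95% CI −0.94 to 0.74) against control. Against DEX it was 0.81 at 1 week (95% CI −0.03 to 1.65) and 0.83 at 4 weeks (95% CI −0.01 to 1.67), with adjusted p of 0.486 and 0.505 in limma. The 1 week values turned on single pools. Against DEX the value was 0.26 without pool 2 at 1 week, which held 104, and 1.17 without pool 1. Without pool 3 it was 0.05 against control and 0.98 against DEX, and the difference between the withdrawal times was −0.15.

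The level of *Nab2* is uncertain because of its neighbours. The gene lies at chr10:127660918-127668568 on the minus strand, and 35.7% of its exon bases (1050 bases) are also exon of the antisense gene *Gm16229*. It shares 151 more with *Nemp1* and 40 with *Stat6*, both on the opposite strand. The counting was strand-specific, but the kit named for these libraries does not mark strand, so reads from the stretch that *Nab2* and *Gm16229* share cannot be assigned to one or the other. *Gm16229* had 13.3 to 22.0 normalised counts in control, 5.80 to 11.6 in DEX, 7.67 to 25.9 at 1 week and 11.7 to 13.95 at 4 weeks, and its log2 fold change between DEX and control was −1.03.

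*Nab1*, the second corepressor, was the least abundant member per kilobase in control and showed no separation between any groups. Control pools held 12.1, 24.4 and 26.4 normalised counts, DEX pools 21.8, 15.7 and 7.51, 1 week pools 15.6, 10.6 and 40.0, and 4 week pools 21.7, 25.6 and 25.1. The group means were 21.0 ± 7.74, 15.0 ± 7.16, 22.1 ± 15.8 and 24.1 ± 2.12 (SD, n = 3 each). The log2 fold change between DEX and control was −0.53 (95% CI −1.53 to 0.46, adjusted p = 0.890 with limma). Leaving out 1 library moved it between −0.88 (without control pool 1) and −0.10 (without DEX pool 3). Against control it was −0.08 at 1 week and 0.28 at 4 weeks, with limma adjusted p of 1 and 0.959. Pool 3 of the 1 week group held the highest value of all, and leaving it out gave −0.62 at 1 week against control, −0.093 against DEX and 0.90 between the withdrawal times. The gene lies at chr1:52457294-52500679 on the minus strand.

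With all 12 libraries in the fit, no member was called in any of the tests in limma (adjusted p under 0.05). Without control pool 3, *Egr2* at 1 week against DEX was called (adjusted p = 0.0449 with limma). The share of all genes called was 0.121% (30 genes) between DEX and control, 0% at 1 week and 0% at 4 weeks against control, 0.433% (107 genes) at 1 week against DEX, 0.873% (216 genes) at 4 weeks against DEX and 0% between 4 weeks and 1 week. Of the members, *Egr2* and *Nab2* had an unadjusted p under 0.05 in limma in DEX against control. So did *Egr1* and *Egr2* at 1 week against DEX and *Egr2* at 4 weeks against DEX. *Egr4* had one between the withdrawal times, but its withdrawal values entered the choice of the family, so that p cannot count as support. Of all 24736 genes, 1682 had such a p in limma in DEX against control, 2665 at 1 week against DEX and 2459 at 4 weeks against DEX. In the 3 comparisons without a call, 938, 1570 and 1352 genes had an unadjusted p under 0.05 in limma, edgeR's quasi-likelihood test called 1, 0 and 0 genes, and DESeq2 called 8, 60 and 15. With either tool on the recovered reads, the member calls were the 3 of DESeq2 given above for *Egr1* and *Egr2*, and none with edgeR. These counts do not cover *Egr3* and *Egr4* after withdrawal against control or DEX, for which no test of any tool is given. The paper's own edgeR analysis of these libraries lists *Egr3* among the genes that differed between groups, lower at both times after withdrawal.

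**Figure D2:**
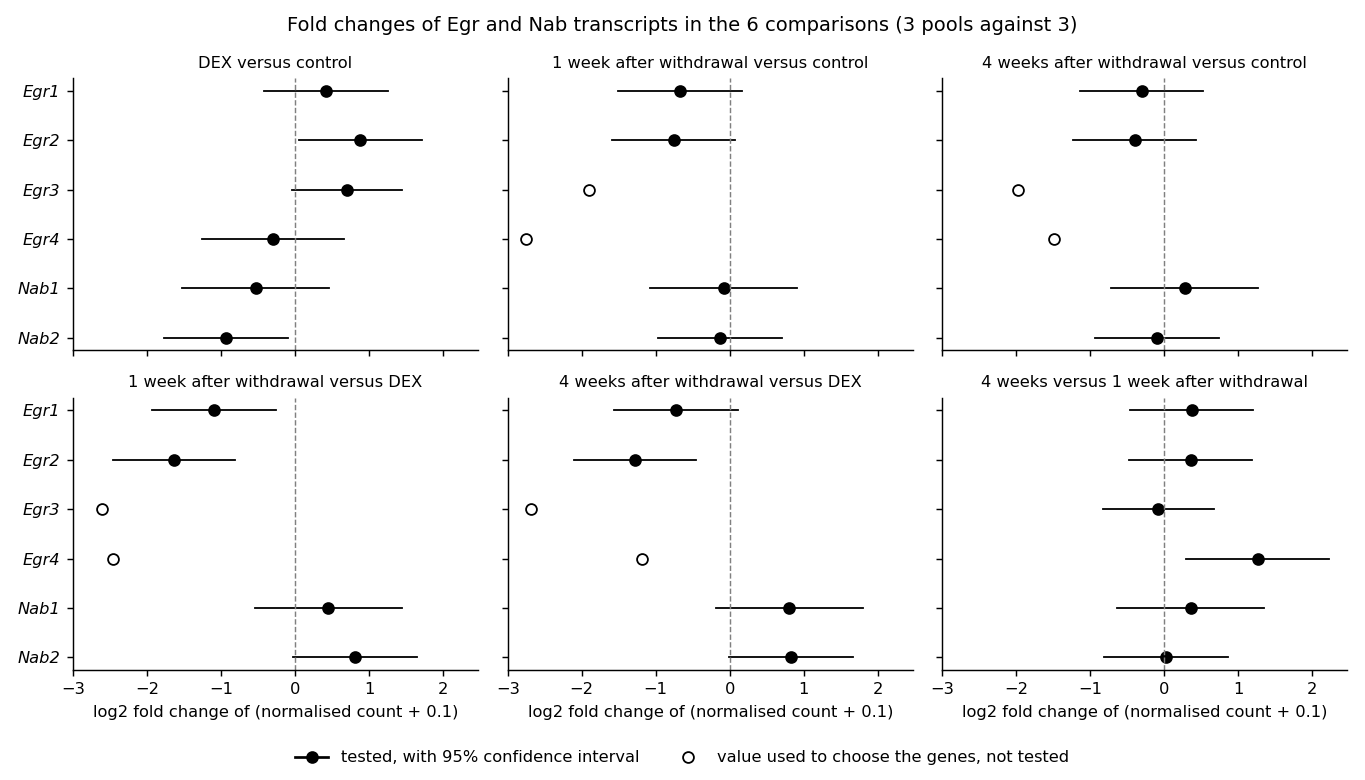
Log2 fold changes of the 6 genes in the 6 comparisons, on the log2(normalised count + 0.1) scale; filled points have 95% confidence intervals from limma, and open points are the *Egr3* and *Egr4* values that chose the family and carry no interval. Intervals for *Egr2* lie below 0 against DEX at both times (−1.64 and −1.28) before adjustment for the number of genes, and those for *Nab1* cross 0 in all panels.

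The balance among the Egr genes was also followed within each library, where it does not depend on scaling. Levels were divided by exon length (normalised counts per kilobase) and given as a percentage of *Egr1* in the same library. *Egr3* was 1.24 to 1.95% of *Egr1* in control, 1.54 to 1.93% in DEX, 0.479 to 0.816% at 1 week and 0.298 to 0.827% at 4 weeks after withdrawal. The withdrawal pools lay below all control and DEX pools on this scale, while control and DEX overlapped. *Egr4* was 10.6 to 21.6% of *Egr1* in control, 9.16 to 10.3% in DEX, 1.97 to 8.73% at 1 week and 6.63 to 7.76% at 4 weeks. Here DEX lay below control, and both withdrawal groups lay below DEX. *Egr2* was 26.7 to 39.8% of *Egr1* in control, 43.5 to 51.7% in DEX, 23.5 to 43.1% at 1 week and 26.9 to 37.5% at 4 weeks. Its DEX pools were above all others, but only just above the highest 1 week pool. These ratios are descriptions, since *Egr3* and *Egr4* chose the family. How many of all genes separate in this way in their ratio to *Egr1* was not counted.

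**Figure D3:**
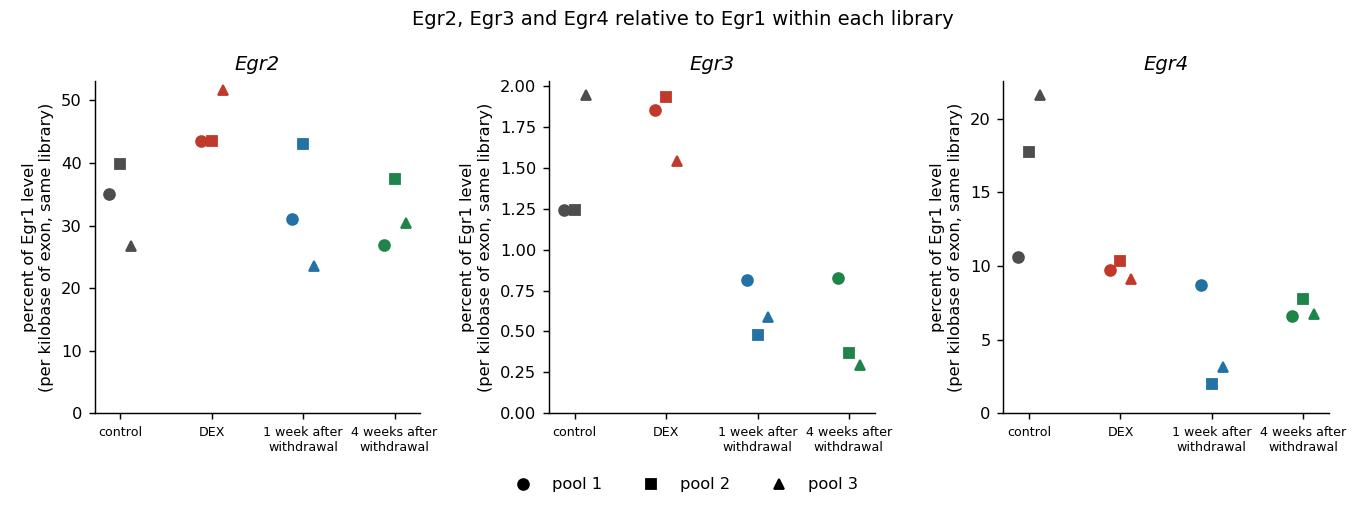
*Egr2*, *Egr3* and *Egr4* as a percentage of *Egr1* in the same library, each level taken per kilobase of exon; symbols are pools 1 to 3 and axes start at 0. *Egr2* is highest in DEX (43.5 to 51.7%), just above pool 2 at 1 week (43.1%), while *Egr3* and *Egr4* are lowest after withdrawal, at no more than 0.827% and 8.73%.

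Per kilobase, the order of levels in control was *Egr1* (mean 658), *Egr2* (229), *Egr4* (105), *Nab2* (18.7), *Egr3* (9.27) and *Nab1* (5.12). Ranges of neighbours in that order were separate, except that *Egr2* (123 to 296) and *Egr4* (81.9 to 132) overlapped. In DEX the order of *Egr3* (13.0 to 17.5) and *Nab2* (7.43 to 14.5) was turned, with overlapping ranges. At 1 week after withdrawal *Egr4* (7.36 to 42.4) and *Nab2* (10.0 to 35.4) overlapped, as did *Egr3* (1.79 to 3.97) and *Nab1* (2.58 to 9.76). At 4 weeks *Nab1* (5.30 to 6.25) lay above *Egr3* (1.68 to 4.09) in all pools, the opposite of control. The ratio of *Egr1* to *Nab2* per kilobase was 26.6 to 53.2 in control, 46.4 to 141 in DEX, 10.6 to 48.5 at 1 week and 29.3 to 31.5 at 4 weeks, with the overlap of *Nab2* and *Gm16229* entering each value.

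Most other immediate early genes had lower values after withdrawal, and 1 of 31 passed the test in limma in any comparison. DESeq2 on the recovered reads called 5 of the 31 at 1 week and 3 at 4 weeks against DEX, edgeR's quasi-likelihood test called 1 and 0, and neither tool called any in the other comparisons. The list of 31 genes, among them *Fos*, *Jun* and *Nr4a1* and without the Egr genes, holds genes that dissociation of tissue also induces. Their summed normalised counts were 22099 to 24544 in control, 22443 to 33176 in DEX, 13710 to 19615 at 1 week and 17232 to 18459 at 4 weeks after withdrawal. Both withdrawal groups were therefore below control and DEX in every pool. How often sums of other sets of genes separate in this way was not counted. Against control, 29 of 31 had a negative log2 fold change at 1 week (median −0.57, against 0.00 over all genes tested) and 24 of 31 at 4 weeks (median −0.42). Of all genes tested, 49.6% and 50.2% were negative there. Limma called none of the 31 at either time. Against DEX, 26 of 31 were negative at 1 week (median −0.86) and 23 at 4 weeks (median −0.45), beside 48.0% and 49.3% of all genes. The 4 week count against DEX was 18 without DEX pool 2 and 27 without DEX pool 3. Between DEX and control, 17 of the 31 were positive and 14 negative (median 0.10), and between 4 weeks and 1 week 21 were positive (median 0.18). Leaving out pool 3 at 1 week gave 26 negative genes against control (median −0.41) and 25 against DEX (median −0.47), and 12 positive of 31 between 4 weeks and 1 week (median −0.09). With edgeR and DESeq2 on the recovered reads the median between DEX and control was −0.06 and −0.07. How much of these values came from the animals and how much from the preparation of the cells was not tested.

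Limma called 1 gene of the list. *Cebpd*, a leucine zipper factor induced by glucocorticoids and inflammation, had 849, 607 and 1825 normalised counts in DEX and 347, 88.5 and 187 at 1 week after withdrawal, without overlap. It fell by 2.45 on the log2 scale (SE 0.448, adjusted p = 0.0215 with limma). The call was lost when DEX pool 1 (adjusted p = 0.102 with limma), DEX pool 3 (0.139) or pool 2 at 1 week (0.0629) was left out, with log2 fold changes of −2.55, −2.00 and −1.94, and held in the other 9 such fits. It was also among the 5 genes whose pattern was most like that of *Egr4*. After withdrawal, *Egr1* and *Egr2* lay near the medians of the list against control. They were at −0.68 and −0.76 against −0.57 at 1 week and at −0.31 and −0.40 against −0.42 at 4 weeks. In the comparisons with DEX, *Egr2* lay further out. Between DEX and control it was 0.881, against a median of 0.099 and a highest list value of 0.873, with *Egr1* at 0.416. Against DEX, *Egr1* and *Egr2* were −1.09 and −1.64 at 1 week (median −0.86) and −0.72 and −1.28 at 4 weeks (median −0.45).

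**Figure D4:**
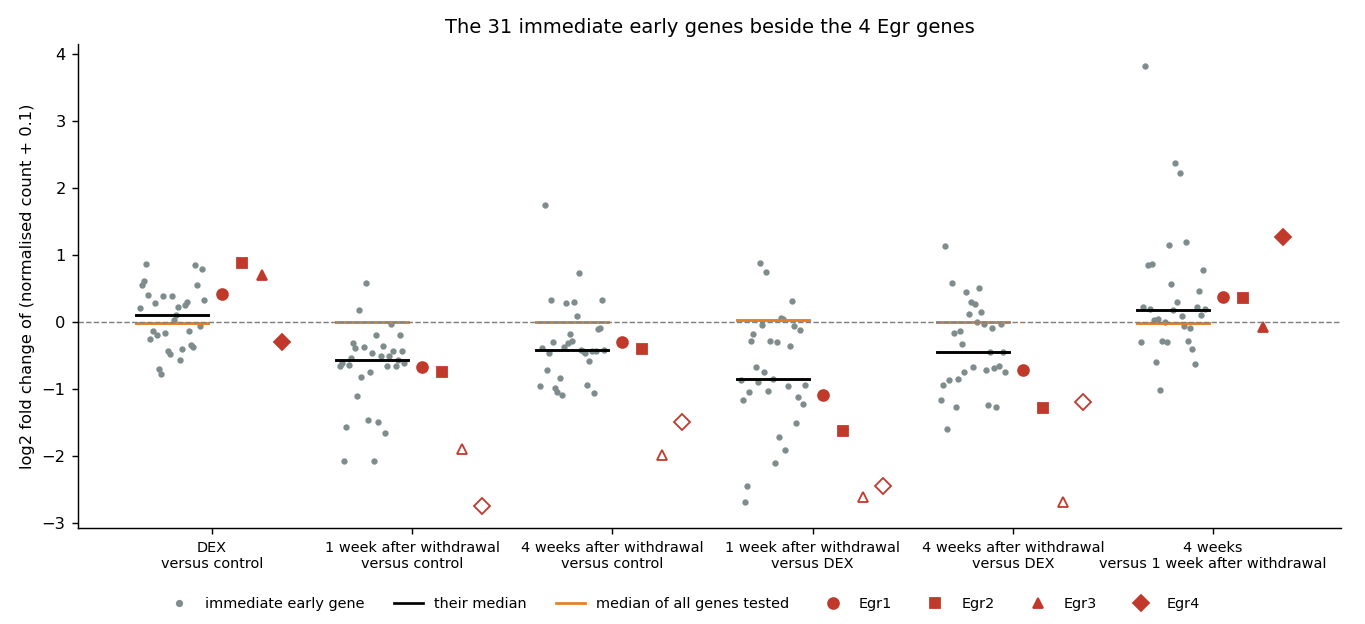
Log2 fold changes, on the log2(normalised count + 0.1) scale, of 31 immediate early genes (grey points, black bar for their median, orange bar for the median of all genes tested) beside the 4 Egr genes in the 6 comparisons; open symbols are values that chose the family. The list medians are −0.57 and −0.42 against control after withdrawal, beside −0.68 and −0.31 for *Egr1* and −0.76 and −0.40 for *Egr2*.

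Among 17 kinases and factors that act upstream of Egr genes, such as *Srf*, *Elk1* and *Creb1*, 1 was called in any comparison. *Crem*, a cAMP-responsive modulator whose short products repress CRE-driven genes, had 94.2, 115 and 55.2 normalised counts in DEX and 295, 313 and 195 at 1 week after withdrawal. It rose between these groups (log2 fold change 1.63, SE 0.313, adjusted p = 0.0297 with limma). The call held in 6 of the 12 fits that left out 1 library. It was lost without DEX pool 1 or 3 (adjusted p = 0.114 and 0.177 with limma), pool 1 or 2 at 1 week (0.0627 and 0.0784) or pool 2 or 3 at 4 weeks (0.0530 and 0.0522), with log2 fold changes of 1.33 to 1.71. Its log2 fold change between DEX and control was −1.44 (adjusted p = 0.103 with limma). The median of the list lay between −0.19 and 0.03 in the 6 comparisons, and the summed level was 869 to 1076 in control and 838 to 1011 in the other groups. Of 10 feedback inhibitors of MAP kinase signalling (*Dusp*, *Spry* and *Spred* genes), none was called by limma. Their medians against control were −0.17 in DEX, −0.38 at 1 week and 0.19 at 4 weeks. In summed level the 1 week pools (62.2 to 101) and control pools (94.2 to 223) overlapped. The 1 week sums lay below all DEX pools (156 to 350) and all 4 week pools (176 to 188). Of the 10 genes, 5 were lower and 5 higher at 1 week against DEX (median 0.04). How often sums of other genes separate in this way was not counted.

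Few partners and targets of the family passed the test. None of 13 NuRD subunits and Nab partners, including *Chd4*, which Nab2 binds, was called by limma in any comparison, and their medians lay between −0.21 and 0.08. Of 13 targets of Egr factors known from other tissues, 12 were tested and 1 was called. *Tgfb1*, a growth factor gene known to be activated by Egr1, had 0.0828, 0.164 and 0.336 normalised counts in DEX, which are 1, 2 and 3 reads, and 2.12, 1.97 and 1.71 at 4 weeks after withdrawal. It rose between these groups (log2 fold change 2.88, SE 0.612, adjusted p = 0.0401 with limma), but the size of the change depends on the pseudocount, being 1.30 with a pseudocount of 1 (adjusted p = 0.0571 with limma). Leaving out any of the 3 DEX or 3 withdrawal pools of this comparison ended the call, with adjusted p from 0.0924 to 0.176 in limma, and so did the pool number as a block (0.0512). Its log2 fold change between DEX and control was −2.37 (adjusted p = 0.225 with limma). *Lhb*, the classic Egr1 target of gonadotrophs, had 0 to 0.164 normalised counts in the 12 libraries, while the gonadotroph gene *Fshb* had 316 to 900. In the annotation 20.4% of the exon bases of *Lhb* are shared with *Ruvbl2* on the opposite strand, and its level was not read further.

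Summed levels of marker genes were compared across the groups. No marker was called by limma against control or between the withdrawal times. Against DEX, *Col3a1* (log2 fold change 3.88, adjusted p = 0.0142) and *Kdr* (3.33, 0.0191) rose at 1 week, and *Col3a1*, *Pdgfrb*, *Kdr*, *Emcn*, *Plvap*, *Pecam1* and *Tshb* rose at 4 weeks, by 2.59 to 5.54 (adjusted p from 0.00210 to 0.0393 with limma). *Col3a1* and *Pdgfrb* mark fibroblasts and pericytes, *Tshb* thyrotrophs and the others endothelium. The summed level of 5 corticotroph markers without *Pomc* was 492 to 1273 in control, 896 to 1989 in DEX, 257 to 1483 at 1 week and 532 to 678 at 4 weeks. The 5 endothelial markers summed to 6.53 to 61.9 in control, 2.82 to 7.85 in DEX, 24.1 to 155 at 1 week and 73.7 to 139 at 4 weeks. Summed levels of 5 pericyte and fibroblast markers were 4.17 to 27.0, 0.897 to 8.18, 11.3 to 33.4 and 42.7 to 63.3 in the same order. The 5 macrophage markers summed to 15.4 to 16.5, 13.7 to 15.9, 16.5 to 39.0 and 16.7 to 38.3, and the 4 stem and folliculostellate markers to 60.9 to 99.7, 58.6 to 71.0, 60.3 to 77.8 and 113 to 148. Gonadotroph markers summed to 3203 to 7768, 1279 to 4073, 3856 to 4498 and 5196 to 6616, with *Lhb* at 0 in the 1 week group. Somatotroph sums were 79009 to 221387, 67713 to 104363, 91916 to 220968 and 150452 to 266036, and lactotroph sums 31585 to 79029, 48203 to 73424, 43694 to 111817 and 86428 to 119867. Thyrotroph sums were 124 to 280, 48.6 to 262, 136 to 316 and 453 to 725, and melanotroph sums 45.9 to 68.3, 39.7 to 59.9, 51.7 to 150 and 58.2 to 75.8. No other marker than *Lhb* was at 0 throughout a group. The part of these cells in the Egr levels was not tested.

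Over the 12 libraries, the genes most like *Egr1* in log2 level were *Zfp791* (Pearson r = 0.95), *Egr2* (0.94), *Zfp36*, *Tenm3* and *Mcu*. Those most like *Egr2* were *Btg2* (0.98), *Zfp36* (0.97), *Kdm4b*, *Stk35* and *Me2*, of which *Btg2* and *Zfp36* belong to the immediate early list. *Egr3* was most like *Tmem145* (0.95), *Itprid2*, *Elmsan1*, *Zfp473* and *Tub*, and *Egr4* most like *Mapk15* (0.93), *Trp73*, *Gm43474*, *Ccdc136* and *Cebpd*. *Nab1* was most like *Spen* (0.94), *Ctnnd2*, *Tcp11l1*, *Gm49907* and *Col27a1*. *Nab2* was most like *Ankrd52* (0.96), its overlapping partner *Gm16229* (0.91), *Ahrr*, *Pqlc2* and *Ubtf*. Among the members, *Egr3* and *Egr4* had r = 0.80, *Egr1* and *Egr3* 0.79, *Egr1* and *Egr4* 0.79, and *Nab1* and *Nab2* 0.11, while each pairing of an Egr with a Nab gene was negative (−0.64 to −0.13). *Egr3* and *Egr4* were chosen because both are low in the same withdrawal libraries, so a high r between them follows in part from that choice. Values of r for other pairs of genes were not collected for comparison. The likeness was searched among 15757 genes, and the points share groups and library depth, so these values describe the 12 libraries only.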

How the data were processed

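RNA from 12 pools of sorted *Pomc*-eGFP positive cells was amplified from polyA RNA (SMART-V4, Nextera XT). According to the processing notes and the methods, the authors trimmed reads with Trim Galore 0.6.5, aligned them to GRCm38 (Ensembl release 98) with STAR 2.7.1a and counted pairs of mapping quality 20 or more with featureCounts 2.0.0 in strand-specific mode. The deposited values are a normalised signal, CPM of the effective library size after TMM scaling in edgeR. Reads were recovered from them, and 100% of 271881 values above 0 came out whole within 1e-06.

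The values were fitted with limma 3.58.1 (R 4.3.3; lmFit and eBayes with trend) on log2(value + 0.1) for 24736 genes above 0.1 in at least 3 libraries, with all 12 libraries in 1 model and 6 contrasts. An adjusted p (Benjamini-Hochberg over all genes) under 0.05 was called. A fold change on this scale understates changes of low genes. Alternatives were a pseudocount of 1, no filter, a filter at 1, median ratio scaling, the pool number as a block, edgeR 4.0.16 quasi-likelihood and DESeq2 1.42.0 on the recovered reads, and each library left out in turn (for the immediate early genes and the called list genes, this was added after seeing the data). Limma and edgeR were run on simulated data for DEX against control, with 4-fold changes in 200 genes and the same dispersion for all genes. Limma recovered 185 of them with 18 false calls, and edgeR 182 with 7. The spread between the real pools was not reproduced, so this run does not show how the tests perform on them.

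The members and gene lists were chosen with earlier results of these data known. The text names the 6 members, list genes that were called, the 5 genes most alike to each member (mean of at least 1), hormone and marker genes that bear on a value, and overlapping genes. *Mkl1* and *Mkl2* were matched as *Mrtfa* and *Mrtfb*. Positions are from GENCODE M21 and promoter windows from RefSeq (GRCm38.p6). No promoter window or protein sequence was used for *Egr1* or *Egr3*. Pools were taken from the labels as separate, and p-values measure the spread between pools. One item of a gene list is not reported here.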

Additional observations from a re-analysis of the deposited data

Results flagged for a closer look

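*Egr3* was flagged because its pools lay on opposite sides of control under DEX and after withdrawal, although its low withdrawal values are what chose the family. All 3 DEX pools were above all control pools, and all pools of both withdrawal groups were below them. The difference between DEX and control did not pass the test (log2 fold change 0.71, 95% CI −0.04 to 1.45, adjusted p = 0.754 with limma), and 6.61% of all genes had their DEX pools above their control pools. All pools lay below all control pools for 2.61% of genes at 1 week and 6.42% at 4 weeks. How many genes had both sides together was not counted. The DEX mean was 5.83 times the mean at 1 week and 6.02 times the mean at 4 weeks after withdrawal. The difference between the DEX and withdrawal effects was not tested, because the withdrawal values chose the family.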

How the results depend on the processing

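With DESeq2 on the recovered reads the genes called numbered 190 (DEX against control), 8 and 60 (1 and 4 weeks against control), 573 and 655 (1 and 4 weeks against DEX) and 15 (4 weeks against 1 week). A pseudocount of 1 gave 54 for DEX against control and 3 for 1 week against control, where edgeR's quasi-likelihood test gave 1. Leaving out 1 library gave ranges of 2 to 66, 0 to 2, 0 to 1, 7 to 201, 19 to 402 and 0 to 1 in the order DEX against control, 1 week and 4 weeks against control, 1 week and 4 weeks against DEX, and 4 weeks against 1 week. The lowest counts against DEX came without DEX pool 3 (1 week) and DEX pool 1 (4 weeks), and the highest without pools 1 and 3 at 1 week. The cause was not tested.

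Among the members, the direction turned only in small differences of *Nab1*, *Nab2* and *Egr3*. On the recovered reads, *Nab1* at 1 week against control was 0.086 with edgeR and 0.095 with DESeq2, *Nab2* there was 0.058 and 0.053, and *Nab2* between 4 weeks and 1 week was −0.19 and −0.20. Leaving out 1 library gave *Nab1* −0.62 to 0.33 at 1 week and −0.076 to 0.48 at 4 weeks against control, −0.093 to 0.86 at 1 week against DEX and −0.054 to 0.90 between the withdrawal times. It gave *Nab2* −0.67 to 0.24 at 1 week and −0.27 to 0.10 at 4 weeks against control and −0.34 to 0.57 between the withdrawal times, and *Egr3* −0.48 to 0.26 there. No alternative turned the direction of *Egr1*, *Egr2* or *Egr4*.

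The pool numbers were shared by the groups, and the values do not decide whether they pair the libraries. Deviations of same-numbered pools had correlations of −0.29 to 0.40 (median 0.056), above 0.1 in 7 of 18 pairs. Those of differently numbered pools were −0.27 to 0.38 (median −0.014), above 0.1 in 7 of 36 pairs. With the pool number as a block the counts were 34, 0, 0, 139, 241 and 0 in the order above, and no call on a member changed. Values of *Egr3* after withdrawal rested on 62 to 195 reads and those of *Nab1* over all groups on 67 to 360. Amplification from little RNA adds spread that counting error does not cover.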
